A study of Arabidopsis thaliana with 12 samples.

Results

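The genes described here encode the light-harvesting antenna and the nuclear-encoded subunits of the photosystems of Arabidopsis thaliana: 43 nuclear LHCA, LHCB, PSA and PSB genes out of 34262 genes in the deposited count table. They were chosen by identifier and not by their values, though with earlier results of these data known. All 43 were found by identifier in the count table and in the TAIR10.1 annotation. They comprised 21 antenna genes (15 LHCB, 6 LHCA) and 22 core genes (12 PSA, 10 PSB), or 18 genes of photosystem I and 25 of photosystem II. The study sequenced mRNA from rosette leaves of untreated plants, 3 weeks old, grown in soil at 22 °C under long days (16 h of light), with 3 libraries for each of 4 genotypes. The groups were ka120 pad4 and ka120 ndr1, both double mutants, then ka120 alone, and Col-0, the wild-type ecotype in whose background the labels place the mutants. Every mutant group therefore carried ka120, single pad4 and ndr1 mutants were not analysed here, and no source used here names the alleles. The labels do not say whether libraries of the same genotype were made from different plants, so p-values measure the spread among the libraries themselves, which may be technical.

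KA120 is a nuclear transport receptor of the importin-beta family, PAD4 acts in immune signalling with EDS1, and NDR1 is needed by several intracellular immune receptors. Photosystem II takes electrons from water and photosystem I passes them to ferredoxin, and each has a core that holds the reaction centre and an antenna of chlorophyll-binding LHC proteins that feeds energy into it. The LHCB proteins form the antenna of photosystem II, as trimers of LHCB1, LHCB2 and LHCB3 and as single copies of LHCB4, LHCB5 and LHCB6, while the LHCA proteins form a belt on 1 side of photosystem I. In leaves these nuclear genes are among the most highly transcribed of all, and many of them respond to light, the clock and signals from the chloroplast.

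The libraries, of strand-specific mRNA, held 68436911 to 85884840 counts each. AT3G08960, taken from background knowledge to be KA120, was at 3.64 to 6.03 counts per 1000000 (CPM, scaled by TMM library sizes) in the 9 mutant libraries, against 24.2 to 33.0 CPM in Col-0 libraries. NDR1 was at 0 to 0.17 CPM in ka120 ndr1 libraries, against 11.5 to 14.5 CPM in ka120 libraries. PAD4 still had 7.73 to 19.1 CPM in ka120 pad4 libraries, against 54.6 to 107 CPM in ka120 libraries and 4.60 to 5.54 CPM in Col-0 libraries. Of the leaf markers, the mesophyll genes RBCS1A, RCA and CA1 summed to 26379 to 33692 CPM in the double mutants, 21878 to 25193 CPM in ka120 and 41179 to 43238 CPM in Col-0. Markers of other leaf cells were compared too. Calls were common in ka120 against Col-0, where 27.0% of all tested genes were called lower and 28.0% higher. A call is a Benjamini-Hochberg adjusted p under 0.05 in the edgeR quasi-likelihood test. The marker sets are small, so calls for only part of a set cannot be told apart from these shares. The guard cell genes MYB60, FAMA and HT1 were all called lower in ka120 than in Col-0 and summed to 44.3 to 54.6 CPM in the double mutants, 39.4 to 44.9 CPM in ka120 and 55.2 to 57.1 CPM in Col-0. The vascular genes SUC2 and APL, of which SUC2 was called lower, summed to 139.7 to 185 CPM in the double mutants, 124 to 143 CPM in ka120 and 248 to 291 CPM in Col-0. The epidermal genes ATML1, PDF1 and KCS6, of which KCS6 was called lower, summed to 642 to 786 CPM in the double mutants, 626 to 744 CPM in ka120 and 711 to 839 CPM in Col-0, with overlap. The part of these cell types in the results was not tested. The flower genes AG, PI and AP3 summed to at most 7.52 CPM in any library, the meristem genes STM and CLV3 to at most 5.75 CPM, and the root genes PYK10, SHR and WOX5 to between 101 and 180 CPM, AG, PI and WOX5 being called higher in ka120 than in Col-0. In bulk samples, fewer cells of a type and less RNA per cell cannot be told apart.

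The 43 photosystem genes together took 8.89 to 9.98% of the counts in ka120 pad4 libraries, 8.89 to 9.58% in ka120 ndr1 libraries, 8.23 to 9.00% in ka120 libraries and 13.8 to 14.7% in Col-0 libraries. In ka120 against Col-0, 42 of the 43 genes fell and 0 rose, and DESeq2 gave the same 2 counts. At an unadjusted p under 0.05, 43 were lower and 0 higher. Among all 22351 tested genes, 27.0% were called lower and 28.0% higher in that comparison (edgeR quasi-likelihood test, Benjamini-Hochberg adjusted p under 0.05). DESeq2 called 27.4% of all tested genes lower and 29.0% higher, and at an unadjusted p under 0.05 in the edgeR test 29.2% were lower and 30.4% higher. The median log2 fold change of the 43 genes was -1.13, or 0.458 times the Col-0 level, beside 0.02 for all tested genes, and 34 of the 43 lay between -1.3 and -0.85. The size depends on the scaling: with total counts alone, the median of the 43 was -0.80, beside 0.35 for all tested genes. For all 43 genes, the 3 ka120 libraries lay below the 3 Col-0 libraries, as they did for 31.0% of all tested genes, with another 32.3% wholly above.

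**Figure D1:**
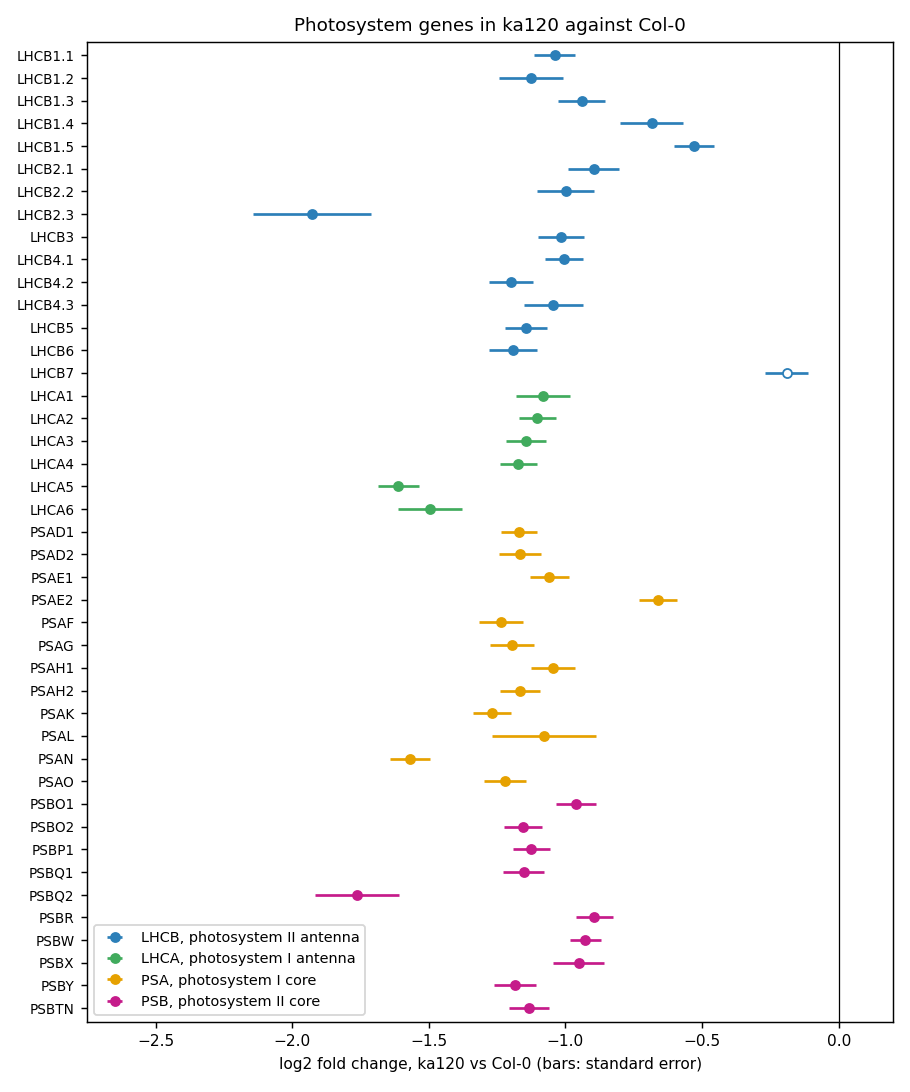
Each row is 1 of the 43 genes, coloured by family; the x axis gives the log2 fold change of ka120 against Col-0, the bars give its standard error, and the open circle marks a gene that was not called. Most genes sit between -1.3 and -0.85, with LHCB2.3 (-1.93) lowest and LHCB7 (-0.19) highest.

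These genes moved together across the libraries of a genotype. In ka120, replicate 3 had the highest CPM of the group for 42 of the 43 genes. In Col-0, replicate 2 had the highest for 41. In ka120 pad4, replicate 1 was highest for 36 and replicate 2 lowest for 37, and in ka120 ndr1, replicate 2 was lowest for 35. The summed mesophyll markers followed the same order in ka120, where replicate 3 had 25193 CPM and the other libraries had 22517 and 21878 CPM, and in ka120 pad4, where replicate 2 had 27273 CPM and the others 33692 and 31622 CPM. In ka120 ndr1 and Col-0 they did so only in part. Replicate 2 was again lowest in ka120 ndr1 (26379 CPM) and highest in Col-0 (43238 CPM). Replicates 1 and 3 changed places: the markers had 27189 and 26644 CPM in ka120 ndr1, where the 43 genes summed to 90787 and 91697 CPM. In Col-0 the markers had 41179 and 41348 CPM and the 43 genes 159365 and 158694 CPM. The genes are thus not independent of each other, and the part of mesophyll content in the results was not tested.

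The LHCB1 genes encode the most abundant protein of the photosystem II trimers. All 5 fell in ka120, with log2 fold changes of -1.13 to -0.53. LHCB1.3 (AT1G29930) was the highest of the 43 genes in every genotype when levels were divided by transcript length, with 8112 ± 947 CPM per kb in ka120 pad4, 8096 ± 522 in ka120 ndr1, 7131 ± 381 in ka120 and 13680 ± 788 in Col-0 (mean ± SD, n = 3 each). On the undivided CPM scale, LHCB1.3 had 10783, 8642 and 10509 CPM in ka120 pad4, 9912, 9339 and 10622 CPM in ka120 ndr1, 8709, 8336 and 9268 CPM in ka120, and 16337, 17942 and 16199 CPM in Col-0. The 9 mutant libraries all lay below the 3 Col-0 libraries, and its log2 fold change in ka120 against Col-0 was -0.94 ± 0.09 (SE, adjusted p = 2.17e-06).

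LHCB1.5 (AT2G34420) and LHCB1.4 (AT2G34430) fell least of the 5, by 0.53 ± 0.07 and 0.69 ± 0.12 on the log2 scale in ka120 against Col-0 (SE, adjusted p = 6.29e-05 and 0.000324). The 5 LHCB1 genes made up 24.8 ± 0.75% of the summed CPM per kb of the 43 genes in ka120 pad4, 25.3 ± 0.62% in ka120 ndr1, 26.5 ± 0.41% in ka120 and 23.4 ± 0.17% in Col-0 (SD, n = 3 each). Their share was thus higher in each of the 9 mutant libraries than in the Col-0 libraries, while their level was lower.

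The LHCB1 genes lie in 2 clusters of single-exon genes. LHCB1.1 (AT1G29920), LHCB1.2 (AT1G29910) and LHCB1.3 occupy chromosome 1 from 10472280 to 10479114, and LHCB1.5 and LHCB1.4 lie head to head on chromosome 2, from 14522524 to 14525918, with LHCB1.5 on the minus strand (TAIR10.1). The coding sequences of the first 3 were 95.6 to 96.4% identical, and those of LHCB1.4 and LHCB1.5 were 91.4% identical. No stretch of 150 bases, the read length, was shared between the annotated transcript of any LHCB1 gene and that of another of the 43 genes. How reads that fit several copies were counted is not stated by any source used here, so the split between LHCB1.1, LHCB1.2 and LHCB1.3 is uncertain.

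The LHCB1 promoters are shown because these closely related genes had unlike responses, and those of LHCB2.3 and LHCB7 because these genes had the most and the least negative change of the 43. Each line gives the 250 bases before the annotated gene start in RefSeq's TAIR10.1 genome, 5′ to 3′ on the strand of the gene. The regions are chr1:10475970-10476219 (minus strand) for LHCB1.1, chr1:10473503-10473752 (minus) for LHCB1.2, chr1:10477635-10477884 (plus) for LHCB1.3, chr2:14524357-14524606 (plus) for LHCB1.4, chr2:14523569-14523818 (minus) for LHCB1.5, chr3:10255656-10255905 (plus) for LHCB2.3 and chr1:28728748-28728997 (plus) for LHCB7. Capitals mark matches on either strand to 5 motifs known from light- and clock-regulated plant genes: the G-box CACGTG, the I-box GATAAG, the element CCAATC, the CCA1-binding site AAAAATCT and the evening element AAAATATCT.
LHCB1.1: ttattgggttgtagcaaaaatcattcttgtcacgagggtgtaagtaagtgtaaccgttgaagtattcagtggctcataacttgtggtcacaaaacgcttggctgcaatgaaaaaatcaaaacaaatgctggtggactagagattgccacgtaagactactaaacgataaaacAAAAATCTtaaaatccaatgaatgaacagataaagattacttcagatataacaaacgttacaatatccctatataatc
LHCB1.2: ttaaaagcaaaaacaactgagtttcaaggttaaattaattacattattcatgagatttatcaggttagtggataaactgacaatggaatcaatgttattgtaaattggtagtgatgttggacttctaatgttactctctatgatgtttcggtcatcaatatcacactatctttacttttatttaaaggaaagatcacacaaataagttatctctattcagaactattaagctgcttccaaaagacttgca
LHCB1.3: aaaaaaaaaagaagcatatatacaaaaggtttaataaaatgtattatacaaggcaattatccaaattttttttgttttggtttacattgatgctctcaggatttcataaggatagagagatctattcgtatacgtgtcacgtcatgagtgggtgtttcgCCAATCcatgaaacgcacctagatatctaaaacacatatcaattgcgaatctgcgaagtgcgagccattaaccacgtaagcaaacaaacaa
LHCB1.4: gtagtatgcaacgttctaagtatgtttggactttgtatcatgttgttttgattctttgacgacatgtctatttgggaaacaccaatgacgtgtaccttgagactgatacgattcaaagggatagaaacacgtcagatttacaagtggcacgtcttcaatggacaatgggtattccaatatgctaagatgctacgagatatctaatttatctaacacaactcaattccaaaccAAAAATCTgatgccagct
LHCB1.5: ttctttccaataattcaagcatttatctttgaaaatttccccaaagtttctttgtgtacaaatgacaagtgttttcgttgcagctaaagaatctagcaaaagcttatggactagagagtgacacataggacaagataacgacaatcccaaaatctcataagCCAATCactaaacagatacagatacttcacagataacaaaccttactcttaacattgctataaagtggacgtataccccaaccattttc
LHCB2.3: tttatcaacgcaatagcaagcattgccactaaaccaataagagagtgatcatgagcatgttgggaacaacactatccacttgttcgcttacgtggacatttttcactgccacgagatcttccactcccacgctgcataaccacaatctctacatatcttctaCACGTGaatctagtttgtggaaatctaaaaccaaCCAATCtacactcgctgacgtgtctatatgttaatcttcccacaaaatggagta
LHCB7: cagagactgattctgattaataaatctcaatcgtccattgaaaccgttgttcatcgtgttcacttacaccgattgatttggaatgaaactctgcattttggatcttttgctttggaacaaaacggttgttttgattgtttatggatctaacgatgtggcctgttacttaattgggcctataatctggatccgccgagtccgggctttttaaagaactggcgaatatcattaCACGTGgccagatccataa

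The search itself ran over 300 bases, from 250 before to 50 after each gene start. LHCB1.1 held a CCA1-binding site beginning 78 bases before the start. LHCB1.3 held a CCAATC element beginning at -91 and a CCA1-binding site beginning at 14 after the start, LHCB1.4 held CCA1-binding sites at -18 and 11, LHCB1.5 held a CCAATC element at -89, and LHCB1.2 held none of the 5. LHCB2.3 held a G-box at -88 and a CCAATC element at -54, and LHCB7 a G-box at -19.

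Over all 43 genes, the G-box was present in 16 promoters (37.2%), against 7.68% of the 27443 promoters of nuclear protein-coding genes searched in the same way. The I-box was in 18 (41.9%, against 14.6%), the CCAATC element in 15 (34.9%, against 12.3%), the CCA1-binding site in 6 (14.0%, against 7.88%) and the evening element in 1, LHCA5 (2.33%, against 2.82%). Antenna and core promoters differed in what they held: the CCAATC element was in 52.4% of antenna and 18.2% of core promoters, while the G-box was in 23.8% and 50.0%, and the I-box in 28.6% and 54.5%. None of the 68 matches in these promoters overlapped another. A match describes the letters only, and these shares were not tested.

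LHCB2, which pairs with LHCB1 in the trimers and is phosphorylated in state transitions, is encoded by 3 genes, and all 3 fell in ka120. LHCB2.3 (AT3G27690) had the most negative change of the 43 genes. It had 705, 424 and 617 CPM in ka120 pad4, 781, 497 and 726 CPM in ka120 ndr1, 459.7, 386 and 599 CPM in ka120, and 1686, 2008 and 1802 CPM in Col-0. The 3 mutant genotypes overlapped each other and all lay below Col-0, and the log2 fold change in ka120 against Col-0 was -1.93 ± 0.21 (SE, adjusted p = 1.01e-05). LHCB2.1 (-0.90) and LHCB2.2 fell less, and so did LHCB3 (-1.02), the third kind of trimer protein. The transcripts of LHCB2.1 and LHCB2.2 share under 1% of their 150-base windows (0.239 and 0.302%).

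The antenna proteins that sit singly between the trimers and the photosystem II core are LHCB4 (CP29), LHCB5 (CP26) and LHCB6 (CP24). LHCB4.1, LHCB4.2, LHCB4.3, LHCB5 and LHCB6 fell within a narrow range in ka120, with log2 fold changes of -1.20 to -1.01. LHCB4.2 (AT3G08940), on chromosome 3 from 2717557 to 2718923, lies 10819 bases from AT3G08960 and is therefore close to the ka120 locus in every mutant group. The change of LHCB4.2 was -1.20 ± 0.08 (SE) and that of LHCB6 -1.19 ± 0.09. Any part of the nearby ka120 locus in the change of LHCB4.2 was not tested.

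LHCB7, a scarcely expressed LHCB gene, was the exception among the 43. It had 32.9, 30.1 and 36.2 CPM in ka120 pad4, 31.7, 33.2 and 29.4 CPM in ka120 ndr1, 29.0, 29.9 and 32.2 CPM in ka120, and 34.3, 34.4 and 35.4 CPM in Col-0. The ka120 libraries lay just below the Col-0 libraries, but the log2 fold change of -0.19 ± 0.08 (SE) did not pass the test (adjusted p = 0.0535). Scaling by total counts alone moved the median of all tested genes in this comparison to 0.35 and the log2 fold change of LHCB7 to 0.14, which was not called, while the other 42 genes were still called lower.

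The 6 LHCA genes all fell in ka120. LHCA1, LHCA2, LHCA3 and LHCA4, which form the belt beside photosystem I, had log2 fold changes of -1.17 to -1.08. LHCA4 was the highest LHCA gene per kb, and on the CPM scale it had 4998, 4659 and 4804 CPM in ka120 pad4, 4817, 4399 and 4713 CPM in ka120 ndr1, 3898, 3714 and 4060.1 CPM in ka120, and 8405, 9579 and 8331 CPM in Col-0. All mutant libraries lay below those of Col-0, and both double mutants lay above ka120 without overlap. LHCA1, which pairs with LHCA4 in the belt, had the least negative change of the family, with 2453, 2362 and 2887 CPM in ka120 against 5364, 5694 and 5258 CPM in Col-0 (log2 fold change -1.08 ± 0.10, SE, adjusted p = 1.89e-06).

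LHCA5 and LHCA6 are scarce LHCA proteins that join photosystem I to the chloroplast NDH complex, which carries cyclic electron flow. LHCA5 fell most in the family, with 111, 92.0 and 105 CPM in ka120 pad4, 96.0, 90.4 and 92.7 CPM in ka120 ndr1, 78.5, 77.5 and 84.0 CPM in ka120, and 238, 258 and 237 CPM in Col-0 (ka120 against Col-0 -1.61 ± 0.07, SE, adjusted p = 2.42e-08). LHCA6 (AT1G19150) fell to 0.355 times the Col-0 level in ka120 (SE 0.12 on the log2 scale, adjusted p = 6.19e-07). These linker genes had low levels too, with means of 249 (LHCA5) and 207 (LHCA6) CPM per kb in Col-0, where LHCA4 had 6774 CPM per kb.

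**Figure D2:**
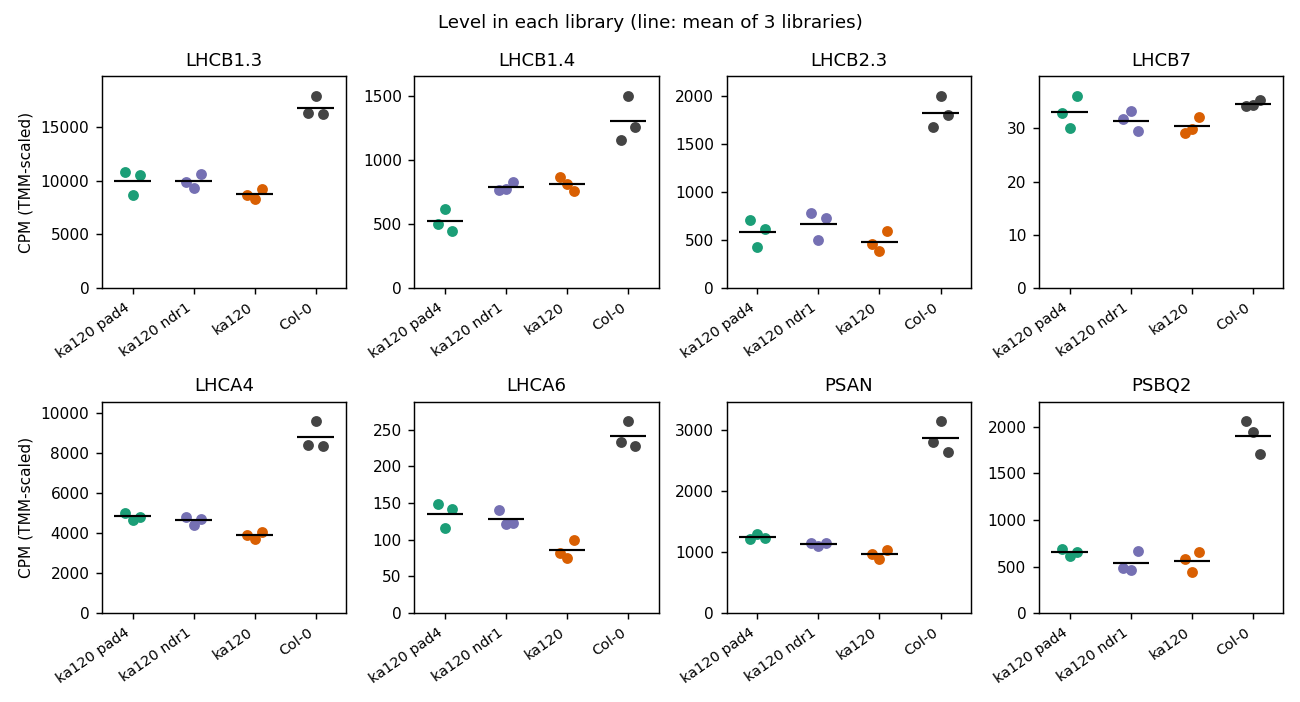
Each panel shows 1 gene; points are the CPM of the single libraries on a linear axis from 0, the lines are the means of 3 libraries, and the genotypes run from ka120 pad4, ka120 ndr1 and ka120 to Col-0. In all panels except LHCB7 the Col-0 points stand clear of the 9 mutant points; in LHCB1.4 the ka120 pad4 points are the lowest, between 447 and 614 CPM.

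The 12 PSA genes, for the nuclear subunits of the photosystem I core, all fell in ka120. PSAD and PSAE, which form the stromal ridge where ferredoxin docks, have 2 genes each. PSAD1 and PSAD2 had equal changes (-1.17 each), whereas PSAE1 fell by 1.06 and PSAE2 by only 0.66 on the log2 scale. PSAE2 had 418, 376 and 409 CPM in ka120 pad4, 341, 338 and 375 CPM in ka120 ndr1, 314, 314 and 347 CPM in ka120, and 517, 537 and 489.7 CPM in Col-0. The Col-0 libraries were above all mutant libraries and those of ka120 and ka120 ndr1 overlapped, and the fall in ka120 was the smallest of the PSA family (-0.66 ± 0.07, SE, adjusted p = 5.61e-06).

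PSAF and PSAN serve the lumen side, where plastocyanin delivers electrons. PSAF had 1988, 1676 and 1932 CPM in ka120 pad4, 2062, 1927 and 2009 CPM in ka120 ndr1, 1693, 1601 and 1865 CPM in ka120, and 3834, 4333 and 3995 CPM in Col-0. Its log2 fold change in ka120 against Col-0 was -1.24 ± 0.08 (SE, adjusted p = 1.65e-07). PSAN fell most of the family, with 1223, 1296 and 1239 CPM in ka120 pad4, 1156, 1103 and 1158 CPM in ka120 ndr1, 977, 894 and 1031 CPM in ka120, and 2808, 3155 and 2643 CPM in Col-0 (-1.57 ± 0.07, SE, adjusted p = 3.01e-08). The 4 genotypes did not overlap for PSAN.

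The remaining PSA genes fell by similar amounts. PSAG and PSAK, at the edges of the core, had log2 fold changes of -1.20 and -1.27. PSAH1, PSAH2, PSAL and PSAO, which form the face where LHCB trimers dock in state transitions, had changes of -1.05, -1.17, -1.08 and -1.22. PSAL was the most variable PSA gene between libraries, with 1244, 1745 and 1982 CPM in ka120 and 2723, 4034 and 3745 CPM in Col-0, and its standard error of 0.19 was the largest of the PSA family.

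The 10 PSB genes, for the nuclear subunits of photosystem II, all fell in ka120 as well. PSBO, PSBP and PSBQ cover the manganese cluster that oxidises water, and PSBR helps to hold them. PSBQ2 fell most, with 689, 615 and 654 CPM in ka120 pad4, 488, 468 and 669 CPM in ka120 ndr1, 585, 446 and 651 CPM in ka120, and 2062, 1945 and 1705 CPM in Col-0. The 3 mutant genotypes overlapped and Col-0 stood apart (-1.76 ± 0.15, SE, adjusted p = 1.44e-06). Its partner PSBQ1 fell by 1.15 on the log2 scale, PSBO1 by 0.96, PSBO2 by 1.16 and PSBP1 by 1.12.

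PSBR was the highest PSB gene per kb and the one that fell least. It had 3516, 3920.4 and 3763 CPM in ka120 pad4, 3376, 3371 and 3144 CPM in ka120 ndr1, 2998, 2897 and 3032 CPM in ka120, and 5534, 5997 and 5058 CPM in Col-0 (-0.89 ± 0.07, SE, adjusted p = 5.49e-07). The 4 genotypes did not overlap. The small subunits PSBW, PSBX, PSBY and PSBTN had changes of -0.93, -0.95, -1.19 and -1.13.

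Antenna and core genes fell by similar medians in ka120, -1.08 for the 21 antenna genes and -1.15 for the 22 core genes, and the range of the antenna genes (-1.93 to -0.19) enclosed that of the core genes (-1.76 to -0.66). Photosystem I genes had a median of -1.17 and photosystem II genes a median of -1.04. Weighted by level, photosystem I genes made up 33.5 ± 0.39% of the summed CPM per kb in ka120 pad4, 32.6 ± 0.32% in ka120 ndr1, 32.4 ± 0.35% in ka120 and 35.1 ± 0.39% in Col-0 (SD, n = 3 each). The 9 mutant libraries spanned 32.1 to 33.9% and lay below the Col-0 libraries, which spanned 34.6 to 35.4%. These shares describe the 43 genes and were not tested.

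The antenna share was 57.5 ± 1.03% of the summed CPM per kb in ka120 pad4, 59.1 ± 1.05% in ka120 ndr1, 59.0 ± 0.24% in ka120 and 57.2 ± 0.20% in Col-0 (SD, n = 3 each). The ka120 and ka120 ndr1 libraries all lay above the Col-0 libraries, and the ka120 pad4 libraries, at 56.4 to 58.5%, overlapped them. The family shares show where this sits: in ka120 against Col-0 the LHCB share was 46.9 against 44.3%, the LHCA share 12.1 against 12.9%, the PSA share 20.2 against 22.2% and the PSB share 20.8 against 20.6%.

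**Figure D3:**
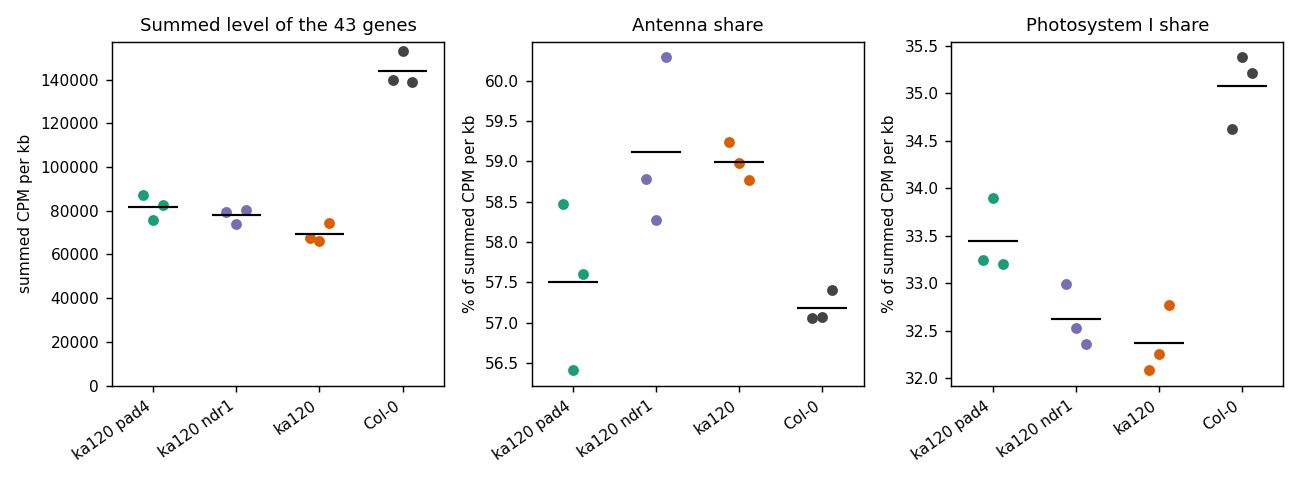
Points are single libraries and lines are means of 3; the left panel gives the summed CPM per kb of the 43 genes on an axis from 0, and the other panels give the antenna share and the photosystem I share of that sum in percent, on axes that do not start at 0. The Col-0 libraries have 138883 to 152964 CPM per kb and the highest photosystem I shares (34.6 to 35.4%), and ka120 has the lowest mean photosystem I share.

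For some paired genes of the same subunit, the ratios of single libraries did not overlap between genotypes. These ratios are of CPM not divided by length, so only their differences between genotypes can be read. The CPM ratio of PSAE2 to PSAE1 was 0.270 ± 0.004 in ka120 pad4, 0.256 ± 0.007 in ka120 ndr1, 0.268 ± 0.002 in ka120 and 0.203 ± 0.004 in Col-0 (SD, n = 3 each), so all mutant libraries lay above all Col-0 libraries. The ratio of PSBQ2 to PSBQ1 was 0.351 ± 0.004 in ka120 pad4, 0.327 ± 0.072 in ka120 ndr1, 0.420 ± 0.052 in ka120 and 0.644 ± 0.056 in Col-0, again without overlap between mutants and Col-0 but in the other direction. PSBO2 to PSBO1 (0.343 in ka120, 0.393 in Col-0) and PSAH2 to PSAH1 (1.402 in ka120, 1.52 in Col-0) were also lower in ka120 without overlap. PSAD2 to PSAD1 was 0.469 ± 0.048 in ka120 ndr1, above all libraries of ka120 (0.407 ± 0.010) and overlapping none of them, and 0.406 ± 0.007 in Col-0. With 3 libraries against 3, the 2-sided exact permutation test of a ratio cannot go below p = 0.1, so no ratio could pass at 0.05. Over the 21 tests of 7 ratios in 3 comparisons the lowest adjusted p was 0.233, which does not tell whether a ratio differed. How often other gene pairs fail to overlap was not examined.

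**Figure D4:**
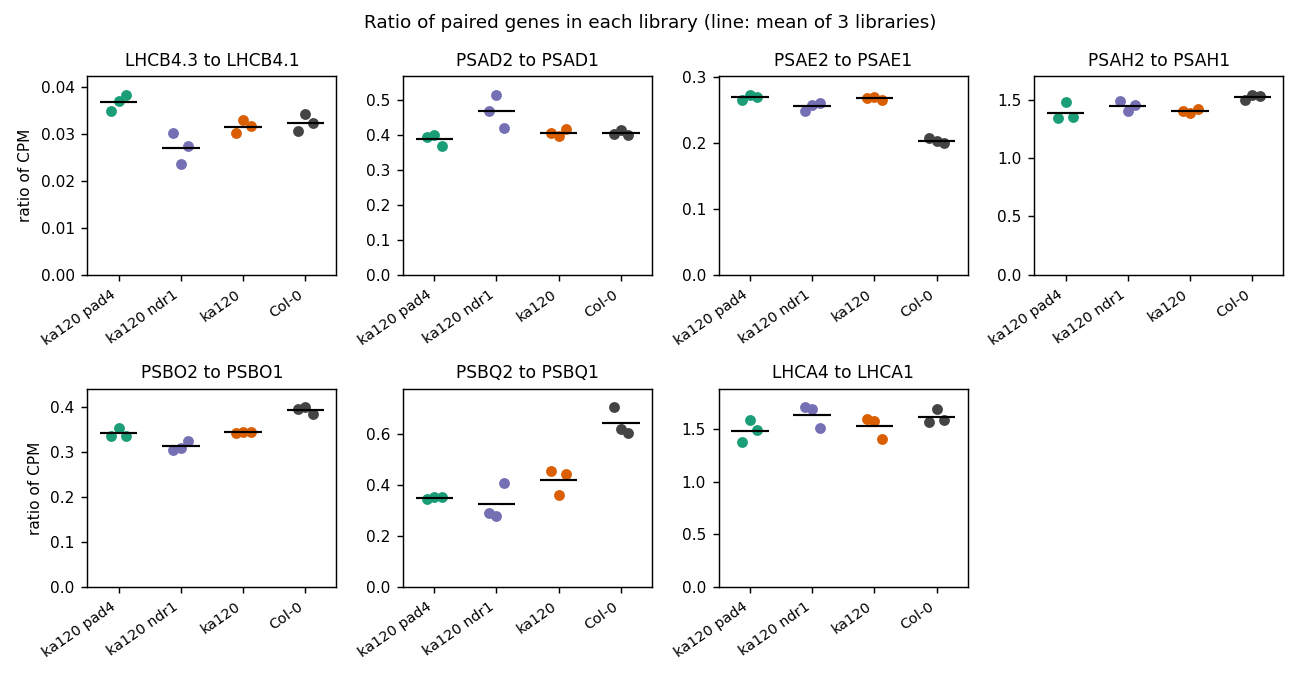
Each panel shows the CPM ratio of 2 related genes, on an axis from 0, with a point for each library and a line at the mean of 3. The ratio of PSAE2 to PSAE1 is higher in the mutants (0.248 to 0.273) than in Col-0 (0.199 to 0.208), and that of PSBQ2 to PSBQ1 is lower.

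The comparisons of the double mutants with ka120 bear on whether loss of PAD4 or NDR1 alters the ka120 profile. Both kept low photosystem transcripts: against Col-0, 42 of the 43 genes were called lower in ka120 pad4 and 42 in ka120 ndr1, beside 20.3% and 23.5% of all tested genes, with LHCB7 not called in either (adjusted p = 0.507 and 0.154). The median log2 fold changes against Col-0 were -0.85 in ka120 pad4, -0.91 in ka120 ndr1 and -1.13 in ka120, comparisons that share the Col-0 libraries.

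In ka120 pad4 against ka120, 25 of the 43 genes rose and 1, LHCB1.4, fell. Among all tested genes, 9.83% were called higher and 8.39% lower. The median log2 fold change of the 43 was 0.27, beside 0.00 for all tested genes, and 41 of 43 were above 0. The libraries of the 2 genotypes did not overlap for 25 of the 26 genes called, PSAH1 being the exception. Counting genes not called as well, 25 of the 43 had all ka120 pad4 libraries higher and 1 all lower, beside 17.0% and 16.3% of all tested genes. The 26 calls became 9 when only these 2 groups were fitted, 9 without ka120 replicate 1, 8 without ka120 replicate 2, 11 without ka120 pad4 replicate 1 and 14 without ka120 pad4 replicate 3. The 3 mesophyll markers rose in the same comparison: RBCS1A by 0.49, RCA by 0.26 and CA1 by 0.60 on the log2 scale. Of the other leaf markers SUC2 rose by 0.38, while the 3 guard cell and 3 epidermal genes were not called, and the part of these cells in the result was not tested.

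Counted by calls, the genes that rose were unevenly spread over the families: 6 of 6 LHCA, 8 of 12 PSA, 7 of 10 PSB and 4 of 15 LHCB genes. Of the 8 LHCB1 and LHCB2 genes, 0 were called higher, which in so few genes is near the 9.83% over all tested genes. Of these 8, 1 was higher at an unadjusted p under 0.05 in the edgeR test and 1 lower, and DESeq2 called 0 higher and 1 lower. Over all tested genes these shares were 16.2% higher and 14.8% lower at the unadjusted p, and 11.4% higher and 10.8% lower by DESeq2. By photosystem these were 14 of 18 for photosystem I and 11 of 25 for photosystem II, and 10 of 21 antenna against 15 of 22 core genes. LHCB3 was just outside the threshold (0.26, adjusted p = 0.0502). The median log2 fold changes were 0.33 for LHCA, 0.29 for PSA, 0.27 for PSB and 0.19 for LHCB genes. They were 0.30 for photosystem I and 0.26 for photosystem II, and 0.23 for antenna and 0.28 for core genes. The difference between the families was not tested.

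LHCA6 rose most, with 148, 117 and 142 CPM in ka120 pad4 and 141, 122 and 123 CPM in ka120 ndr1, against 82.6, 74.9 and 99.1 CPM in ka120 and 233, 262 and 228 CPM in Col-0. Both double mutants lay between ka120 and Col-0 without overlap (ka120 pad4 against ka120 0.67 ± 0.12, SE, adjusted p = 0.00313; ka120 ndr1 against ka120 0.59 ± 0.12, SE, adjusted p = 0.0167). PSBQ1, the partner of PSBQ2, had 1989, 1744 and 1844 CPM in ka120 pad4 and 1672, 1670.1 and 1633 CPM in ka120 ndr1, against 1284, 1237 and 1465 CPM in ka120 and 2911, 3134 and 2823 CPM in Col-0. It rose in both double mutants, by 0.48 ± 0.07 (SE, adjusted p = 0.00189) in ka120 pad4 and by 0.32 ± 0.07 (SE, adjusted p = 0.0297) in ka120 ndr1. PSBQ2 did not pass in either (0.22 and -0.05, adjusted p = 0.361 and 0.877).

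Among the other genes with the smallest p-values in ka120 pad4, LHCA4, LHCA5, PSAN and PSBR rose by 0.31, 0.36, 0.37 and 0.33 (log2, adjusted p = 0.00834, 0.00594, 0.00531 and 0.00704). PSAH2, which had 1060.4, 936 and 991 CPM in ka120 pad4 and 1006, 937 and 985 CPM in ka120 ndr1 against 796, 758 and 901 CPM in ka120, rose in ka120 pad4 (0.28, adjusted p = 0.0197), while its value in ka120 ndr1 was 0.25 (adjusted p = 0.0627), and its libraries did not overlap ka120 in either. The 2 double mutants did not differ for PSAH2 beyond the threshold (0.03, adjusted p = 0.886).

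LHCB1.4 was the only gene of the 43 called lower in ka120 pad4 than in ka120. It had 496, 614 and 447 CPM in ka120 pad4, 767, 776 and 829 CPM in ka120 ndr1, 865, 815 and 756 CPM in ka120, and 1158, 1503 and 1255 CPM in Col-0. The ka120 pad4 libraries lay below all the others, and LHCB1.4 fell by 0.65 ± 0.12 on the log2 scale against ka120 (SE, adjusted p = 0.00375) and by 0.61 ± 0.12 against ka120 ndr1 (SE, adjusted p = 0.0217). Its divergent neighbour LHCB1.5 had a change of 0.12 against ka120 (adjusted p = 0.304), with 6316, 5124 and 5497 CPM in ka120 pad4 and 5101, 5079 and 5412 CPM in ka120. The call against ka120 held in every alternative fit, including each fit without 1 library, while that against ka120 ndr1 was lost in 6 of 16.

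In ka120 ndr1 against ka120, 5 genes rose and 0 fell: LHCB4.1, LHCB4.2, LHCA4, LHCA6 and PSBQ1. Among all tested genes, 3.20% were called higher and 2.74% lower. The median of the 43 was 0.18, beside 0.00 for all tested genes, and 40 of 43 were above 0. At an unadjusted p under 0.05, 21 were higher and 0 lower, and DESeq2 called 12 higher and 0 lower. Over all tested genes, 12.2% were higher and 11.2% lower at the unadjusted p, and DESeq2 called 5.95% higher and 5.67% lower. All 5 genes called by edgeR had libraries that did not overlap, and so did 18 genes that were not called. All ka120 ndr1 libraries were higher for these 23 genes, beside 14.9% of all tested genes, while they were all lower for 0 of the 43, beside 14.5%. LHCB4.1 had 2956, 2846 and 3024 CPM in ka120 ndr1 and 3163, 2669.9 and 3091 CPM in ka120 pad4, against 2367, 2379 and 2556 CPM in ka120 (ka120 ndr1 against ka120 0.27 ± 0.07, SE, adjusted p = 0.0404). LHCB4.2 had 1481, 1349 and 1421 CPM in ka120 ndr1 and 1396, 1162 and 1299 CPM in ka120 pad4, against 1108, 1121 and 1217 CPM in ka120 (0.30 ± 0.08, SE, adjusted p = 0.0446). The count rested on single libraries: it was 0 without ka120 replicate 1, ka120 replicate 2 or ka120 ndr1 replicate 1, 1 without ka120 ndr1 replicate 2 or 3, and 12 without ka120 replicate 3.

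**Figure D5:**
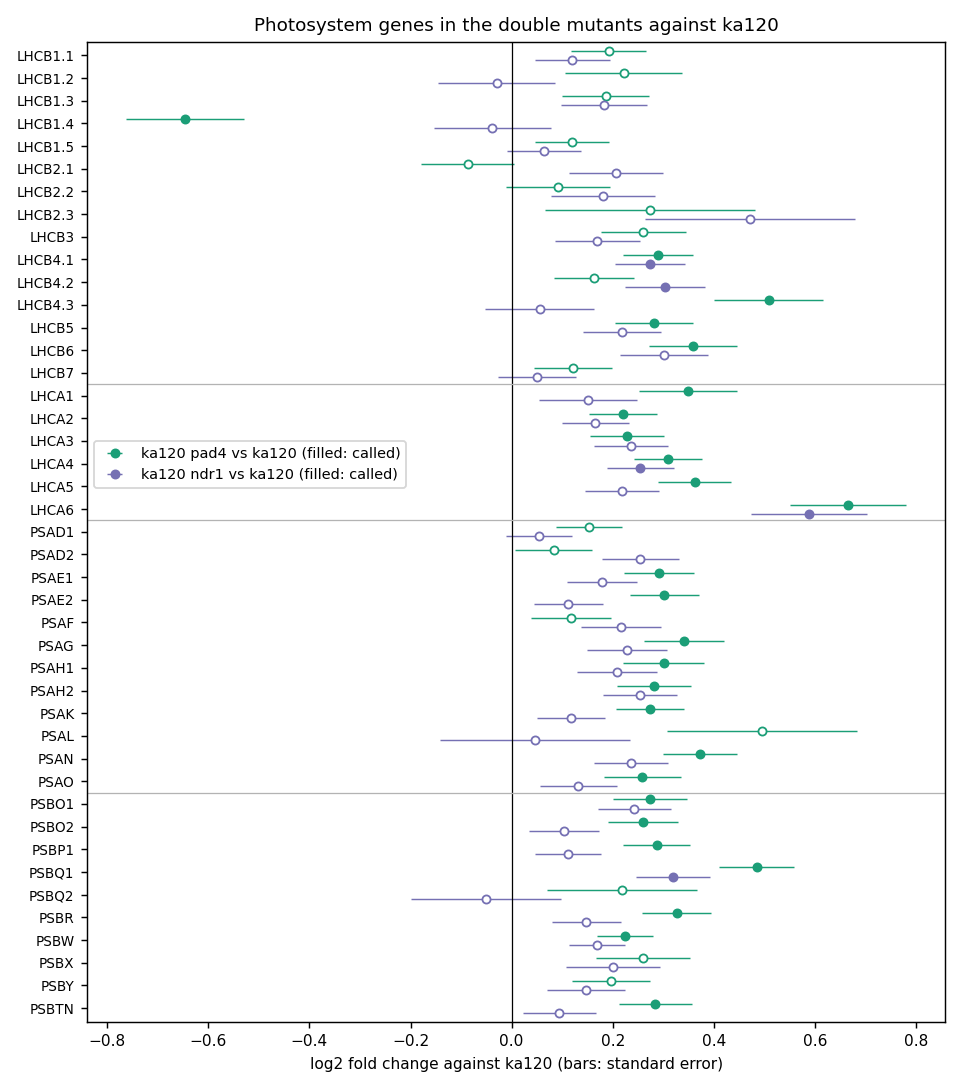
Each row is 1 of the 43 genes in the order LHCB, LHCA, PSA and PSB; the x axis gives the log2 fold change of ka120 pad4 (green) and ka120 ndr1 (purple) against ka120, bars are standard errors, and filled points were called. Nearly all points lie right of 0, LHCA6 lies farthest right in both double mutants, and LHCB1.4 in ka120 pad4 (-0.65) is the only called point left of 0.

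Between ka120 pad4 and ka120 ndr1, 2 of the 43 genes were called, 1 in each direction, beside 1.51% of all tested genes higher and 0.886% lower. In 43 genes, 1 call in each direction is near these shares. Besides LHCB1.4, the gene called was LHCB4.3, a rare form of CP29, with 110.4, 99.2 and 119 CPM in ka120 pad4 and 89.5, 67.5 and 82.9 CPM in ka120 ndr1 (0.45 ± 0.11, SE, adjusted p = 0.0498). LHCB4.3 had 71.5, 78.5 and 80.9 CPM in ka120, and it rose in ka120 pad4 against ka120 (0.51 ± 0.11, SE, adjusted p = 0.0076). The LHCB4.3 call between ka120 pad4 and ka120 ndr1 was lost in 9 of 16 alternative fits. For the other 41 genes the test between the double mutants did not pass, whether or not they were called against ka120.

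Other nuclear genes of the thylakoid, taken from short lists that are not full sets, moved with the photosystem genes in ka120 against Col-0. In that comparison 27.0% of all tested genes were called lower. Of 11 electron carriers and ATP synthase subunits, 10 fell, among them ATPD (-1.35), the delta subunit of the ATP synthase, and FD2 (-1.26), the main leaf ferredoxin, while FD1 was not called (-0.20, adjusted p = 0.077). All 7 listed genes of antenna regulation fell, including ZEP (-1.16), zeaxanthin epoxidase, and PSBS (-1.13), the sensor of energy quenching. All 4 listed genes that deliver LHC proteins to the membrane fell, including CPFTSY (-1.08) and CPSRP43 (-1.02). All 7 listed photosystem II assembly and repair genes fell, led by HCF136 (-1.39) and PSB27 (-0.96). All 6 listed nuclear genes of NDH, the complex that LHCA5 and LHCA6 join to photosystem I, fell, led by NDHO (-1.54) and PNSB1 (-1.28).

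The listed LHC-like stress proteins were mixed: 5 of 7 fell, including OHP2 (-1.03), a small LHC-like protein of photosystem assembly, and 2 rose. Among all tested genes 27.0% were called lower and 28.0% higher, so 2 of 7 called higher is near that share. The 2 that rose were ELIP1 (1.28 ± 0.16, SE, adjusted p = 2.97e-05) and ELIP2 (0.51 ± 0.19, SE, adjusted p = 0.0385), early light-induced proteins that are made under light stress. A further list held 6 chloroplast-encoded identifiers, taken from background knowledge to be photosystem core genes, which the annotation used here does not name. Of these, 5 were called higher in ka120 than in Col-0, beside 28.0% of all tested genes, led by ATCG00350 (2.04) and ATCG00270 (1.63). The 6 had a median log2 fold change of 1.29, whereas all 22 nuclear core genes were called lower. The summed level of the 6 was low in these mRNA libraries, at 104 to 127 CPM in ka120 and 37.6 to 78.0 CPM in Col-0. Over all 133 chloroplast genes in the table, the share of counts was 0.140 to 0.164% in ka120 and 0.0978 to 0.191% in Col-0, which overlapped.

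In ka120 pad4 against ka120, 8 of the 11 carrier genes, 3 of 7 regulation genes, 0 of 4 delivery genes, 5 of 7 LHC-like genes, 5 of 7 assembly genes and 5 of 6 NDH genes rose, and none of them fell. NDHL, singled out after its values were seen, had the largest of these rises, 0.66 (adjusted p = 0.000994). In ka120 ndr1 against ka120 the counts were 1, 2, 1, 3, 1 and 3 in the same order, again with none lower. Among all tested genes, 9.83% were called higher and 8.39% lower in ka120 pad4, and 3.20% and 2.74% in ka120 ndr1. The lists are small, so the lower counts and the lack of falls are near these shares. Of the 6 chloroplast-encoded identifiers, 0 were called in ka120 pad4 and 3 were called lower in ka120 ndr1.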

How the data were processed

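The submitters' processing notes name the aligner HISAT2 (2.0.4), the counter HTSeq (0.6.1p1) and the build TAIR10, with no role, strand setting or annotation release stated. The deposited count table holds whole numbers, but 45.7 to 48.1% of counts from 4 to 40 were multiples of 4 (25% by chance), so they were treated as estimated counts as the authors deposited them, and 1 count may not be 1 read pair. The authors' log2 table follows log2 of the count plus 0.5, scaled per library, and served 1 alternative (limma).

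Counts were tested with edgeR's quasi-likelihood test (edgeR 4.0.16, R 4.3.3, TMM scaling, 8 residual degrees of freedom) over all 12 libraries and 22351 genes kept by filterByExpr, with Benjamini-Hochberg adjustment over all of them and a threshold of 0.05. The adjusted p-values of the report come from this fit unless another test is named. Log2 fold changes are given with standard errors. CPM per kb divides CPM by the TAIR10.1 transcript length. Paralogue ratios were compared by exact permutation. The code was tested on simulated data.

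Per-library values are given, in each family, for the gene with the highest mean CPM and those with the lowest and highest fold change in ka120 against Col-0, for genes not called there, and for the 3 genes of each photosystem with the smallest p in each double mutant; the others were added as partners of these. From each other list, the 2 genes with the largest change were named. The genes and lists were chosen with earlier results of these data known. Alternatives were RLE, upper-quartile and total-count scaling, TMM without the 43 genes, other filters, a replicate block, 2-group fits, DESeq2 1.42.0, limma 3.58.1 and leaving out each library.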

Additional observations from a re-analysis of the deposited data

How the results depend on the processing

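In ka120 against Col-0, 42 or 43 of the 43 genes were called lower under every alternative, and of 176 recomputed log2 fold changes of the 11 genes named there, 171 kept direction and call. The other 5 were all LHCB7: 4 alternatives called it lower, and scaling by total counts turned it to 0.14. In ka120 pad4 against ka120 the 26 calls became 9 in the 2-group fit and 8 to 33 when 1 library was left out. In ka120 ndr1 against ka120 the 5 calls became 2 with a replicate block, 12 with DESeq2, 2 with limma, and 0 to 12 when 1 library was left out. Between the double mutants the 2 calls became 1 with RLE factors, 1 with total counts, 1 without a filter, 1 with a replicate block, 0 in the 2-group fit, and 0 to 2 when 1 library was left out. The cause of these shifts was not tested, except that a 2-group fit and a left-out library have fewer samples. The replicate block moved no other count by over 1.5 times. Replicate numbers did not pair the libraries: over 18 same-numbered pairs r was -0.05 to 0.11, and 1 exceeded 0.1.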
